A study of Mus musculus with 48 samples.

Results

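Cyproheptadine at 10 µM was compared with vehicle in STHdhQ111 cells by RNA-Seq. The samples were chosen by their labels alone, as the 3 cyproheptadine samples and the 3 vehicle control samples of the mutant line, which are 6 of 48 samples in 16 conditions. STHdhQ111 is a conditionally immortalized line of murine striatal progenitors from a female mouse, labelled as strain C57BL/6 and with the genotype mutant, and it carries expanded huntingtin from a homozygous knock-in. It is a single line, so no result here separates the mutation from other features of this line. All 6 samples were kept without serum for 24 hours, either with cyproheptadine or with vehicle. Cyproheptadine is a tricyclic antihistamine that also blocks serotonin receptors, and it is one of 14 compounds that the study treated as protective against the cell death that follows serum withdrawal. The question was which transcripts differ when the cells receive it.

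4 further conditions in the mutant line served for comparison, each with 3 samples and 24 hours in serum-free medium. Loxapine, diacylglycerol kinase inhibitor II (DKI) and meclizine were given at 10 µM and could be compared directly with cyproheptadine, while pizotifen was given at 5 µM and is only set beside it. STHdhQ7 cells, the line with wild-type huntingtin, were measured with vehicle. Samples were collected on 3 days and at 3 times of each day. Vehicle replicates 1, 2 and 3 came from day 1 time 1, day 2 time 2 and day 3 time 3. Cyproheptadine replicates 2 and 3 share the last 2 of these slots, but cyproheptadine replicate 1 is labelled day 3 time 1, a slot without a vehicle sample. Among all conditions only cyproheptadine and DKI have a replicate 1 from another day than day 1, and whether this label is right could not be checked, so the day term and the comparisons within slots rest on it. The labels do not say that replicates were separate cultures. The p-values therefore measure only the spread between replicates, pooled over all 16 conditions in the fit, and this spread may be technical.

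Each value below is a normalized abundance on the log2 scale, and each difference is a log2 fold change with its standard error. They look like regularized log2 values, since weakly expressed genes scarcely differ between samples, and differences of such genes are understated. Where the values of a gene are given as 2 sets joined by "against", vehicle replicates 1 to 3 come first and cyproheptadine replicates 1 to 3 second. The values hold no counts, and the sequencing depth is unknown. The library was directional, but whether the quantification used the strand is not stated, so values of genes that overlap others on either strand are uncertain. Only some overlaps are named below. A neighbour with a name of its own also overlaps Htt on the same strand. On the other strand such neighbours overlap Col4a1, Csf1r, Cxcl16, Fosl1, Lamp1, Loxl3, Map1lc3b, Mlx, Npc1, Nr1d1, Pfkm, Sqstm1 and Tgtp1. Many genes overlap unnamed transcripts. The values are not corrected for transcript length, and levels of different genes are not ranked. 13409 genes were tested with limma in 1 fit to all 48 samples, and a gene was called at a Benjamini-Hochberg adjusted p under 0.05.

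Markers of the labelled cell type were only partly present. Vimentin (Vim), an intermediate filament of progenitors and of many other cells, was at 15.38, 15.38 and 15.51 in vehicle and 15.18, 15.11 and 15.13 in cyproheptadine samples. Nestin (Nes), the filament that defines neural progenitors, was at 5.20, 4.97 and 4.72 against 5.06, 4.99 and 4.96, and the progenitor factor Sox2 was at 4.84, 4.81 and 4.79 against 4.88, 4.67 and 4.69. Both were low in all 6 samples and were higher by 5.99 and 4.10 in the STHdhQ7 vehicle control. Of 18 striatal genes, 8 could be tested, and the dopamine receptors Drd1 and Drd2 and the GABA enzymes Gad1 and Gad2 fell below the minimum. The striatal phosphoprotein gene Ppp1r1b stood near the floor of the table at 1.98, 1.89 and 1.91 in vehicle. Foxp1, a factor of striatal and many other cells, was at 10.09, 9.98 and 9.89 in vehicle. Since these markers were mixed, the cells are called STHdhQ111 cells throughout.

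The groups of genes described below belong to known programmes. When amino acids are short, haem is lacking or proteins misfold in the endoplasmic reticulum (ER), kinases phosphorylate the initiation factor eIF2, general translation slows, and the factor ATF4 is made and switches on genes for amino acid uptake, amino acid synthesis and tRNA charging. When sterol in the ER membrane falls, the factor SREBP2 is released and switches on the enzymes of cholesterol synthesis, and many cationic amphiphilic drugs, a class that includes cyproheptadine, are known to collect in lysosomes and to disturb sterol handling. Interferon-stimulated genes form another block, which many cell lines express at a steady level without infection.

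Cyproheptadine changed 4780 of 13409 genes (35.6% of all genes tested), 2343 with higher values (17.5%) and 2437 with lower values (18.2%). In 2189 of the former (16.3% of genes tested) and 2309 of the latter (17.2%) all 3 cyproheptadine samples lay beyond all 3 vehicle samples. Most changes were small. The median size among called genes was 0.285, and 74 genes changed by more than 1, 38 up and 36 down. The median over all genes tested was -0.00. Between replicates of a condition the correlation across genes was 0.998 to 0.999, and between the conditions it was 0.994 to 0.996.

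**Figure D1:**
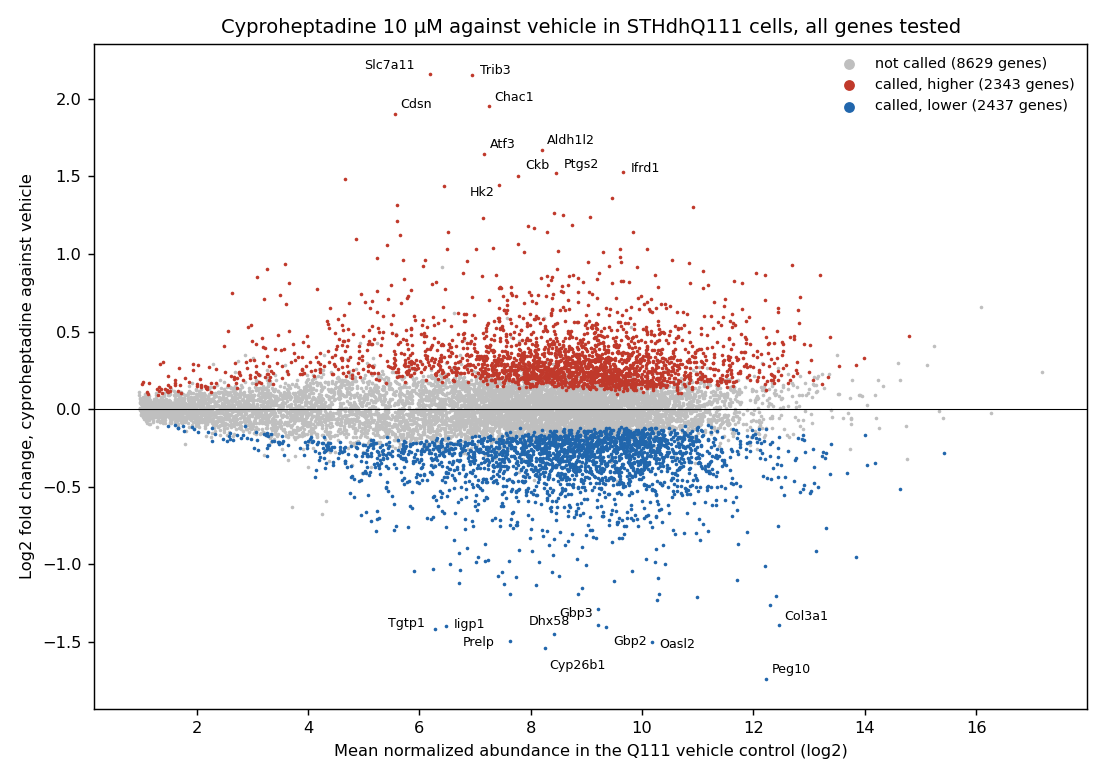
Log2 fold change of cyproheptadine against vehicle (vertical axis) by the mean log2 abundance in vehicle (horizontal axis), with 1 point for each of 13409 genes. Of these, 2343 were called higher (red) and 2437 lower (blue), and the labels mark the 10 largest rises, from 1.44 for Hk2 to 2.16 for Slc7a11, and the 10 largest falls, from -1.39 for Gbp3 to -1.74 for Peg10, taken from genes whose mean was 6 or more and whose groups lay apart.

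Several of the 10 largest rises were in genes that ATF4 is known to switch on, beside others such as Cdsn, Ptgs2, Ckb and Hk2. Slc7a11 (ENSMUSG00000027737, chromosome 3, 49892526 to 50443614, minus strand) encodes the cystine carrier of the cystine-glutamate exchanger. Its values were 6.24, 6.25 and 6.06 in vehicle and 8.27, 8.42 and 8.33 in cyproheptadine samples. The groups lay far apart, and the log2 fold change was 2.16 (standard error 0.23, limma, adjusted p = 4.6e-09). Unnamed genes overlap it on both strands, so its value is uncertain to that extent. Trib3 (ENSMUSG00000032715, chromosome 2, 152337422 to 152344032, minus strand), a pseudokinase induced by ATF4 and CHOP, was at 7.06, 6.96 and 6.83 in vehicle and at 9.02, 9.08 and 9.19 with cyproheptadine. All treated samples stood above all controls, by 2.15 on average (standard error 0.21, limma, adjusted p = 6.5e-10). Chac1 (ENSMUSG00000027313, chromosome 2, 119351229 to 119354381, plus strand), which degrades glutathione, went from 7.12, 7.34 and 7.27 to 9.17, 9.19 and 9.25. This was a rise of 1.95 (standard error 0.14, limma, adjusted p = 2.4e-12) with a narrow spread in both groups. Atf3 (ENSMUSG00000026628, chromosome 1, 191170296 to 191218039, minus strand), a stress-induced repressor, was at 7.20, 7.06 and 7.24 in vehicle and 8.72, 8.86 and 8.87 in treated samples, a rise of 1.65 (standard error 0.14, limma, adjusted p = 4.8e-11). Atf4 itself (ENSMUSG00000042406, chromosome 15, 80255184 to 80257541, plus strand) was at 10.81, 10.95 and 10.97 against 12.19, 12.21 and 12.24. The treated samples differed by little from one another and rose by 1.30 (standard error 0.09, limma, adjusted p = 1.2e-12). Ddit3, the CHOP gene, which overlaps Mars on the opposite strand, rose by 0.95 (standard error 0.13, limma, adjusted p = 2.6e-07).

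Of the list of 20 regulators of this response 19 were tested, and 16 rose and 1 fell, with a median log2 fold change of 0.76. The mean over the list was 8.67, 8.69 and 8.70 in the vehicle samples and 9.35, 9.49 and 9.48 in the cyproheptadine samples. In the pairs from the same slot the medians were 0.85 on day 2 and 0.78 on day 3. The member that fell was Eif2ak2, which encodes the kinase PKR, an interferon-induced member of the eIF2 kinases, by 0.53 (standard error 0.11, limma, adjusted p = 3.2e-04). The kinase genes Eif2ak1 and Eif2ak4 were not called, at -0.09 and -0.10, whereas Eif2ak3, the gene of the ER kinase PERK, rose by 0.32.

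Stretches of the promoters of Slc7a11, Chac1 and Atf3 are shown because these members of the response rose most among those whose stretch lies before the start site. Capitals mark the letters TGATGNAA, read on either strand (TTNCATCA), a form of the amino acid response element to which ATF4 and its partners bind. The sequences are from RefSeq, GRCm38.p6, and run 5′ to 3′ on the strand of the gene, at chr3:50443632-50443719 (minus strand), at chr2:119351009-119351096 (plus strand) and at chr1:191183396-191183483 (minus strand).
Slc7a11: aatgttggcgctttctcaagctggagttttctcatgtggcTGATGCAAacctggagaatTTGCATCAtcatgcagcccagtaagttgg
Chac1: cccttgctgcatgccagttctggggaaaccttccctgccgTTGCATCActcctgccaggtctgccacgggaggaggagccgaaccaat
Atf3: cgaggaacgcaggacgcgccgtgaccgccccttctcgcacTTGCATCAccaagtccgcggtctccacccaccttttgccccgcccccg
The first marked base lies at -66, -193 and -110 from the start site of the RefSeq entry. Such a start can differ from the gene coordinates given, and for Atf3 it lies far inside them. Windows of 300 bases around start sites covered 64 of the 85 genes of the ATF4, amino acid and tRNA synthetase lists. Of these windows 16 of 81 held this motif (19.8%), and among all 32851 windows 1304 did (3.97%). A match describes these letters only and is no measurement of binding.

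Many enzymes that make amino acids rose as well. The mitochondrial folate enzyme Aldh1l2 (ENSMUSG00000020256, chromosome 10, 83487450 to 83534140, minus strand), which D10Wsu102e overlaps on the other strand, was at 8.29, 8.24 and 8.07 in vehicle and 9.57, 10.03 and 10.03 with cyproheptadine. Cyproheptadine replicate 1 was the lowest of its group and still far above the controls, and the rise was 1.67 (standard error 0.15, limma, adjusted p = 8.8e-11). Asns, the asparagine synthetase gene (ENSMUSG00000029752, chromosome 6, 7675169 to 7693254, minus strand), was at 9.40, 9.45 and 9.51 against 10.75, 10.82 and 10.88. The groups were separate, with a rise of 1.36 (standard error 0.11, limma, adjusted p = 2.2e-11). Mthfd2, a mitochondrial enzyme of the folate cycle, rose by 1.24 (standard error 0.11, limma, adjusted p = 1.1e-10), and Pycr1, which makes proline, rose by 1.14 (standard error 0.10, limma, adjusted p = 8.3e-11). In serine synthesis, Psat1 rose by 0.89 and Phgdh by 0.55 (limma, adjusted p = 2.2e-11 and 2.0e-05). Of 13 genes of serine and folate metabolism, 9 rose and 1 fell, with a median of 0.55. The fall was in the cytosolic Aldh1l1, whose level was near 2.6 in vehicle, by 0.20 (standard error 0.06, limma, adjusted p = 0.00872), and this was not called in the 2 shared slots alone (adjusted p = 0.0508, limma). Of 14 other amino acid enzymes, 9 rose and 1 fell, with a median of 0.35. The fall was in Bcat2, a mitochondrial enzyme that breaks down branched-chain amino acids, by 0.23 (standard error 0.07, limma, adjusted p = 0.00778). This call was lost without cyproheptadine replicate 1 (adjusted p = 0.0541, limma) and without vehicle replicate 1 (adjusted p = 0.0512). It was also lost in the 2 shared slots alone (-0.16, limma, adjusted p = 0.18) and with only the compared conditions in the fit (adjusted p = 0.0936).

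Of 19 amino acid carriers 12 rose and 1 fell, with a median of 0.26. Slc3a2, the heavy chain that pairs with Slc7a11 and other carriers, was at 10.85, 10.82 and 10.84 in vehicle and at 11.77, 11.82 and 11.74 in treated samples. It rose by 0.94 (standard error 0.15, limma, adjusted p = 3.8e-06), with hardly any spread within groups. The glutamate carrier Slc1a3 was at 7.15, 7.30 and 7.18 against 6.82, 6.55 and 6.52. It fell by 0.57 on the log2 scale (standard error 0.13, limma, adjusted p = 5.9e-04).

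The enzymes that load amino acids onto tRNA in the cytosol rose nearly as a block. Of 20 tested, 17 rose and 0 fell (17 at an unadjusted limma p under 0.05), with a median of 0.55. The 3 not called were Kars, Qars and Vars, at -0.05, -0.04 and 0.11. Gars, the glycyl-tRNA synthetase gene, was at 11.14, 11.09 and 11.06 against 11.84, 11.89 and 11.91. Every treated sample lay above every control, with a rise of 0.78 (standard error 0.08, limma, adjusted p = 1.1e-09). Nars, for asparagine, rose by 0.81, and Hars, for histidine, by 0.24 (limma, adjusted p = 4.6e-09 and 0.00289). Hars is overlapped on the other strand by Hars2, so reads of these 2 genes may be mixed. The 17 synthetases of mitochondria had a median of -0.02, with 2 up and 3 down, close to the shares of all genes.

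ER chaperones rose too. Hspa5 (ENSMUSG00000026864, chromosome 2, 34771970 to 34777547, plus strand), which encodes BiP, the main chaperone of the ER lumen, was at 12.66, 12.71 and 12.71 in vehicle and 13.68, 13.62 and 13.56 with cyproheptadine. The groups did not overlap, and the rise was 0.93 (standard error 0.09, limma, adjusted p = 1.6e-10). Xbp1, the gene of a transcription factor of the unfolded protein response, was at 8.11, 8.18 and 8.10 against 9.00, 8.87 and 8.74, a rise of 0.74 (standard error 0.07, limma, adjusted p = 1.8e-10). Splicing of its transcript was not measured. Of 22 genes in the list, 19 rose and 0 fell (21 at an unadjusted limma p under 0.05), with a median of 0.45 and medians of 0.47 and 0.40 within the 2 shared slots. Heat shock chaperones of the cytosol and mitochondria were mixed, with 7 of 18 up, 3 down and a median of 0.06. Among all genes 17.5% rose and 18.2% fell. The mitochondrial chaperonin gene Hspd1 rose by 0.57 and the small heat shock gene Cryab fell by 0.45 (limma, adjusted p = 1.5e-07 and 0.00322). Each of these overlaps a neighbour on the other strand, Hspe1 and Hspb2, which is itself a chaperone gene. The constitutive chaperone gene Hspa8 was at 13.37, 13.35 and 13.46 against 13.45, 13.31 and 13.40, a difference of -0.01 (limma, adjusted p = 0.925). After quantile normalization Hspa8 was called lower (-0.14, limma, adjusted p = 0.0361).

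**Figure D2:**
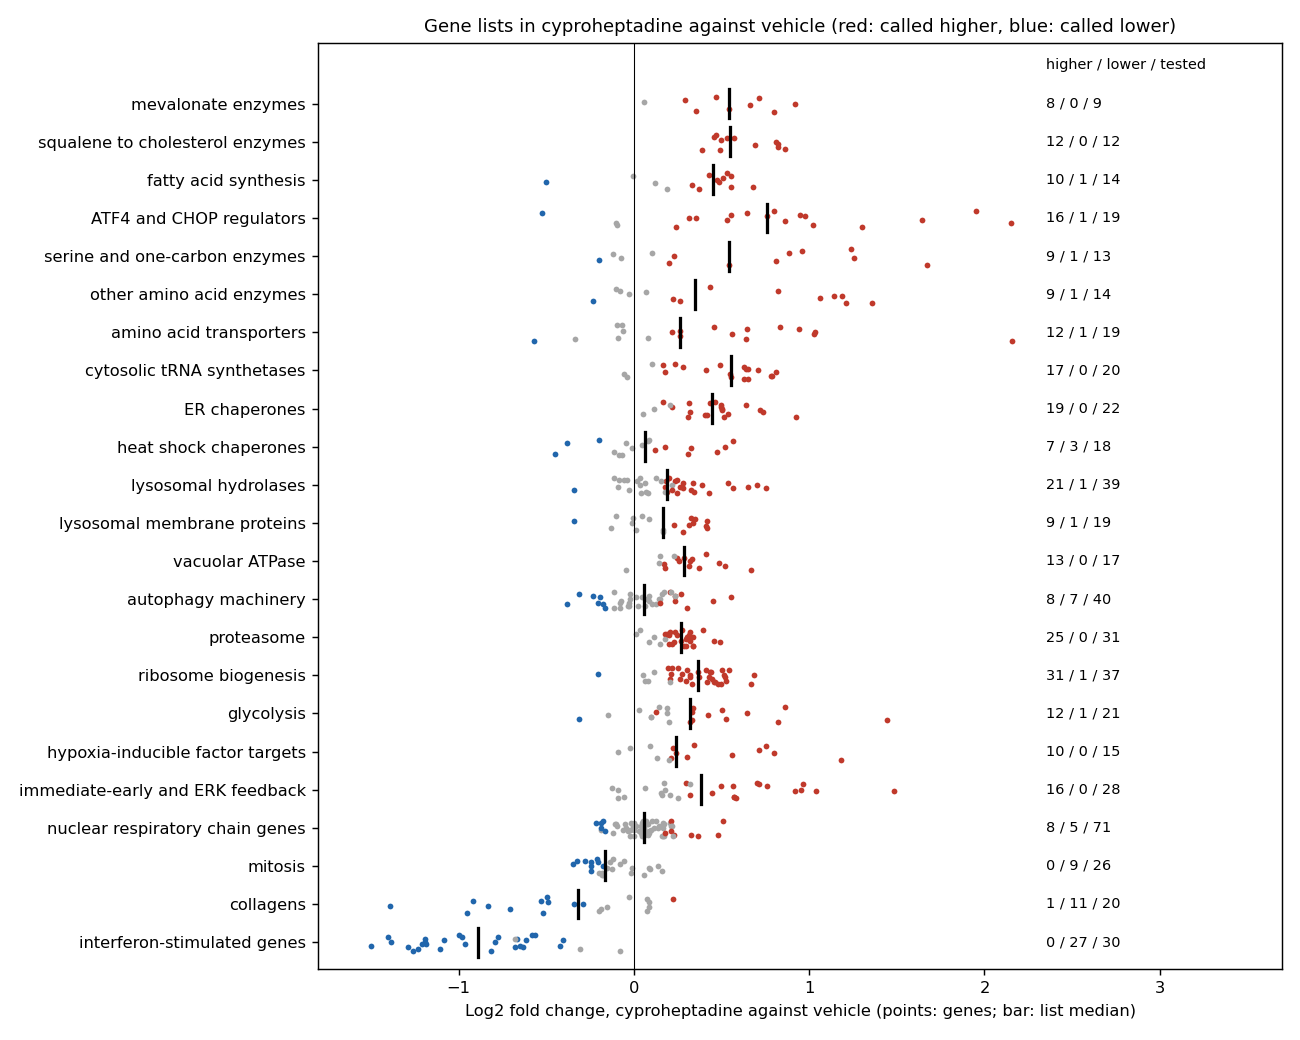
Log2 fold change of cyproheptadine against vehicle (horizontal axis) for the genes of 23 lists (vertical axis), with 1 point for each gene and a bar at the list median. Numbers at the right give genes called higher, called lower and tested, from 12, 0 and 12 for the squalene to cholesterol enzymes, with a median of 0.55, to 0, 27 and 30 for interferon-stimulated genes, with a median of -0.89.

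All enzymes between squalene and cholesterol rose. Of 12 tested, 12 rose, with values from 0.39 to 0.86 and a median of 0.55. The list mean was 10.37, 10.43 and 10.46 in vehicle and 11.08, 11.04 and 11.01 in cyproheptadine samples, so the groups lay more than 0.5 apart and varied by less than 0.1 within. Cyp51 (ENSMUSG00000001467, chromosome 5, 4081145 to 4104746, minus strand), which removes a methyl group of lanosterol and is overlapped by Akap9, rose most, from 12.16, 12.24 and 12.23 to 13.18, 13.06 and 12.98, by 0.86 (standard error 0.10, limma, adjusted p = 4.0e-08). Ebp and Dhcr7, sterol isomerase and reductase genes whose proteins bind several amine drugs, rose by 0.50 and 0.49 (limma, adjusted p = 1.3e-06 and 3.4e-05). Sqle, the squalene epoxidase gene, rose by 0.53 (limma, adjusted p = 4.0e-07). In the mevalonate branch 8 of 9 genes rose, with a median of 0.54. Mvd rose most, by 0.92, and Hmgcs1 by only 0.29 (limma, adjusted p = 1.7e-08 and 0.00338). Ggps1, which leads away from sterols to prenylation, was not called, at 0.06.

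The SREBP2 gene itself did not pass the test. Srebf2 was at 12.80, 12.80 and 12.85 in vehicle and 12.79, 12.90 and 12.83 with cyproheptadine, and the groups overlapped (0.02, limma, adjusted p = 0.85). Insig1, which holds SREBP in the ER and is its target, rose from 11.99, 12.14 and 12.04 to 13.03, 12.87 and 12.90, by 0.87 (standard error 0.10, limma, adjusted p = 2.1e-08). Npc1, whose protein exports sterol from lysosomes, rose by 0.42 (limma, adjusted p = 1.1e-05). Abca1, the sterol exporter that liver X receptors switch on, was at 10.03, 9.65 and 9.63 against 9.36, 9.65 and 9.36. Its groups overlapped, and the difference of -0.31 was not called (limma, adjusted p = 0.19). Mylip, a ubiquitin ligase gene that liver X receptors switch on, fell by 0.52, and the scavenger receptor gene Lrp1 fell by 0.54 (limma, adjusted p = 1.9e-04 and 2.9e-06). In this list of sensing, uptake and efflux 5 of 19 rose and 3 fell, with a median of 0.02. Of all genes 17.5% rose and 18.2% fell. In fatty acid synthesis 10 of 14 rose and 1 fell, with a median of 0.45. The elongation enzyme gene Hsd17b12 rose by 0.68, fatty acid synthase (Fasn) by 0.55 and the desaturase gene Scd1 by 0.43 (limma, adjusted p = 2.6e-09, 2.4e-06 and 2.2e-05). Acacb, whose product restrains fatty acid burning at mitochondria, was at 7.12, 6.87 and 6.89 against 6.13, 6.61 and 6.65 and fell by 0.50 (limma, adjusted p = 7.1e-05). With only the compared conditions in the fit Acacb was not called (limma, adjusted p = 0.108).

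The promoter stretch of Hmgcs1 is shown because it was the only one of the windows of these 2 lists with the letters TCACNCCAC or, on the other strand, GTGGNGTGA, a form of the sterol regulatory element (RefSeq, GRCm38.p6, chr13:119690174-119690262 (plus strand), capitals mark the match, whose first base is at -137).
Hmgcs1: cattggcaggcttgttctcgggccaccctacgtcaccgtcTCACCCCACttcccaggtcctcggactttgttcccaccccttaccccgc
It was 1 of 19 windows (5.26%), against 408 of all 32851 (1.24%). The 19 windows covered 16 of the 21 genes, so the others were not searched. No match in a window says only that these letters are not there.

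Many lysosomal genes were called higher, and others were not called or fell. Gla (ENSMUSG00000031266, chromosome X, 134588149 to 134601125, minus strand), the alpha-galactosidase gene, was at 8.88, 8.81 and 8.84 in vehicle and 9.48, 9.61 and 9.72 in treated samples. The groups were well separated, and the rise of 0.76 (standard error 0.06, limma, adjusted p = 6.1e-11) was the largest among the hydrolases. Ctsd, the main lysosomal aspartic protease gene, was at 12.41, 12.42 and 12.52 against 13.14, 13.10 and 13.07, a rise of 0.65 (standard error 0.09, limma, adjusted p = 3.0e-07). Of 39 hydrolases, 21 rose and 1 fell, with a median of 0.19, and the fall was in Ids, by 0.34 (limma, adjusted p = 0.00205). Pla2g15, a phospholipase gene whose product is inhibited by cationic amphiphilic drugs, rose by 0.28 (limma, adjusted p = 0.00202). The acid sphingomyelinase gene Smpd1 was at 9.26, 9.24 and 9.32 against 9.35, 9.20 and 9.19 with overlapping groups, and acid lipase (Lipa) differed by -0.12 (limma, adjusted p = 0.782 and 0.0989). Among 19 membrane proteins 9 rose and 1 fell, with a median of 0.17. Lamp1, a major coat protein gene of the lysosome, rose by 0.28 and the calcium channel gene Mcoln1 by 0.33 (limma, adjusted p = 2.9e-04 and 6.3e-06), while Laptm4b fell by 0.34 (adjusted p = 8.7e-06, limma). The proton pump of the lysosome had 13 of 17 subunits up and 0 down (14 at an unadjusted limma p under 0.05), with a median of 0.29. Atp6v0b, which an unnamed gene overlaps, rose most, from 10.39, 10.50 and 10.60 to 11.18, 11.07 and 11.23, by 0.67 (limma, adjusted p = 1.7e-08).

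Promoter stretches of Gla, Ctsd and Naglu are shown because these hydrolase genes rose and hold the letters TCACGTG or CACGTGA, the core of the CLEAR element that TFEB binds. Capitals mark the matches, and where both forms overlap they run on as 8 letters. The stretches are RefSeq GRCm38.p6, on the strand of each gene, at chrX:134601187-134601255 (minus strand), at chr7:142388026-142388077 (minus strand) and at chr11:101069980-101070066 (plus strand).
Gla: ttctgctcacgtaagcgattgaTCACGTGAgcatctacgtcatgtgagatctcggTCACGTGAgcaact
Ctsd: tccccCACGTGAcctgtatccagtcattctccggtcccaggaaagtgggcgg
Naglu: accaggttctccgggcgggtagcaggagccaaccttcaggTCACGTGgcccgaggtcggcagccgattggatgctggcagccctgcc
The first marked base lies at -228, -245 and -74 from the start site of the RefSeq entry. For Gla and Ctsd this start lies inside the annotated coordinates of the gene. The Ctsd window holds 3 matches, of which the stretch shows the first. Of 67 windows of lysosomal hydrolases, membrane proteins and pump subunits, 18 held a match (26.9%), and of all windows 1237 did (3.77%). The 67 windows covered 59 of the 75 genes.

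The TFEB gene itself went the other way. Tfeb was at 7.40, 7.21 and 7.42 in vehicle and 7.01, 6.74 and 6.90 with cyproheptadine, a fall of 0.46 (standard error 0.09, limma, adjusted p = 1.7e-04) with no overlap. TFEB is controlled largely by where its protein sits in the cell, which was not measured. In its list of 16, with folliculin and the Rag and Ragulator genes, 9 rose and 1 fell, with a median of 0.22. Gpnmb, a glycoprotein gene that the TFEB family switches on, rose by 0.76, and folliculin (Flcn) by 0.26 (limma, adjusted p = 3.9e-08 and 0.00223). Of 40 core autophagy genes 8 were called higher and 7 lower, with a median of 0.06, near the 17.5% and 18.2% of all genes. Map1lc3b, which encodes LC3B, was at 10.80, 10.90 and 11.00 against 10.93, 10.87 and 10.95, and its groups overlapped (0.01, limma, adjusted p = 0.873). The cargo receptor gene Sqstm1 (p62) rose by 0.45 and Gabarapl1, an LC3 relative, by 0.30 (limma, adjusted p = 2.0e-04 and 4.4e-04). Tmem41b, a lipid scramblase gene needed for autophagosomes, rose most, by 0.55, and the receptor gene Calcoco1 fell most, by 0.38 (limma, adjusted p = 1.8e-07 and 2.1e-05). Ulk1, the starting kinase gene, fell by 0.16 (limma, adjusted p = 0.00401), a call that was lost in the 2 shared slots alone (adjusted p = 0.13, limma). It was also lost with only the compared conditions in the fit (-0.13, limma, adjusted p = 0.141). With only the 2 shared slots, 3 autophagy genes were called lower, and with only the compared conditions in the fit 4 were called higher and 2 lower.

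**Figure D3:**
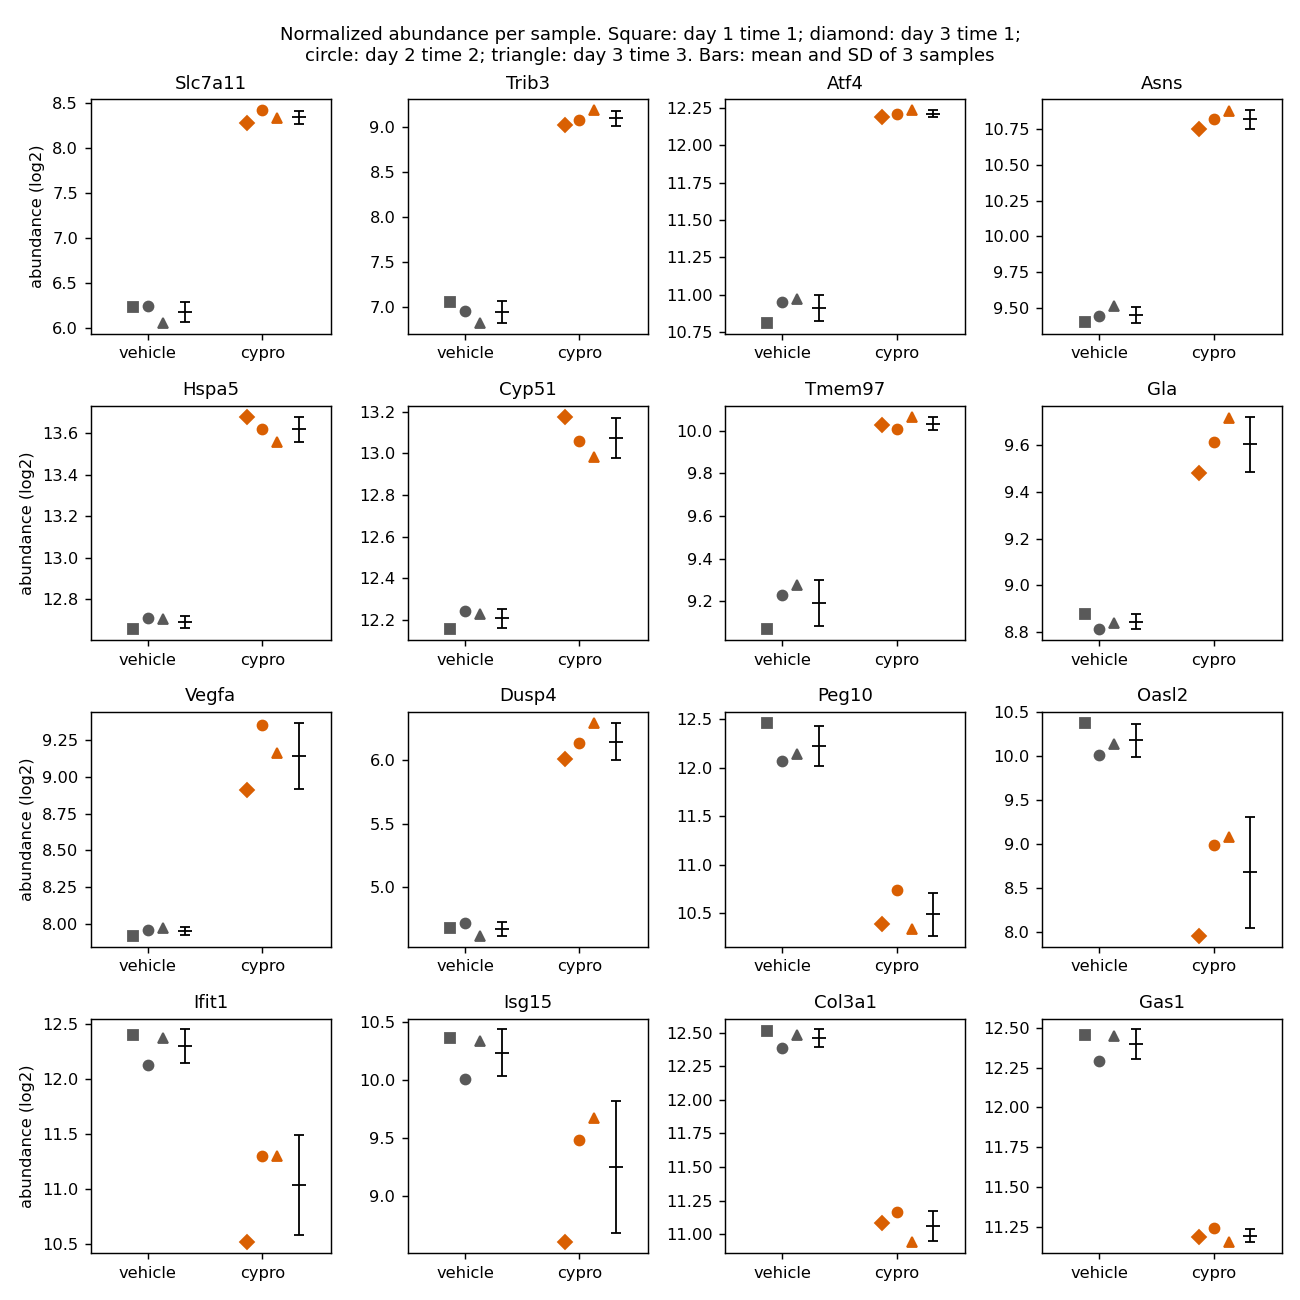
Log2 normalized abundance (vertical axis) of 16 genes in each of the 3 vehicle and 3 cyproheptadine samples, with the symbol giving the collection day and time and the bar the mean and SD of 3 samples. Slc7a11 stood at 6.24, 6.25 and 6.06 in vehicle and 8.27, 8.42 and 8.33 with cyproheptadine, and in Oasl2 the cyproheptadine sample of day 3 time 1, at 7.95, lay below the other treated samples, at 8.99 and 9.08.

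Interferon-stimulated genes fell. Of 30 tested, 27 fell and 0 rose (27 at an unadjusted limma p under 0.05), with a median of -0.89. The 3 that were not called were Ifi27, Rsad2 and Mx1, at -0.08, -0.31 and -0.68. Oasl2 (ENSMUSG00000029561, chromosome 5, 114896936 to 114912234, plus strand), an antiviral gene of the oligoadenylate synthetase family, was at 10.38, 10.02 and 10.14 in vehicle and 7.95, 8.99 and 9.08 in treated samples. All treated samples were below all controls, cyproheptadine replicate 1 by the most, and the log2 fold change was -1.50 (standard error 0.26, limma, adjusted p = 2.0e-05). Ifit1 (ENSMUSG00000034459, chromosome 19, 34640871 to 34650009, plus strand), which binds foreign RNA and has close paralogs that may share reads, was at 12.40, 12.13 and 12.37 against 10.52, 11.31 and 11.30. Again replicate 1 was lowest, and the difference was -1.26 (standard error 0.20, limma, adjusted p = 4.0e-06). Isg15, a ubiquitin-like modifier gene, was at 10.37, 10.01 and 10.34 against 8.60, 9.48 and 9.67, with a difference of -0.98 (standard error 0.22, limma, adjusted p = 6.7e-04). Dhx58, which encodes the RNA sensor LGP2, and the guanylate-binding protein genes Gbp2 and Gbp3 were also among the 10 largest falls, at -1.45, -1.40 and -1.39 (limma, adjusted p = 9.7e-06, 8.7e-07 and 9.5e-05). So were Tgtp1 and Iigp1, interferon-induced GTPase genes, at -1.41 and -1.40 (limma, adjusted p = 7.4e-04 and 4.4e-04). Genes of the Gbp and Tgtp families are near copies of one another, and their values are uncertain to the extent that reads were shared.

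The level of these genes in the cyproheptadine samples differed between collection slots. The mean over the 30 genes was 9.38, 9.11 and 9.29 in vehicle replicates 1 to 3 and 7.98, 8.48 and 8.64 in cyproheptadine replicates 1 to 3. The lowest treated sample was that of day 3 time 1, the slot without a vehicle sample. DKI replicate 1 came from the same slot and was also the lowest of its group, at 8.13, 8.85 and 8.93 for DKI replicates 1 to 3. Meclizine and pizotifen had their replicate 3 in that slot, and these stood at 8.90 among 9.04, 8.80 and 8.90 and at 8.98 among 8.97, 9.10 and 8.98. What part the slot has in the fall was not tested. Within the slots that both conditions share, the median over the list was -0.62 on day 2 and -0.63 on day 3. Without replicate 1 of both conditions, 17 of the 30 genes were called lower, and Isg15 was not (-0.60, limma, adjusted p = 0.0732). Isg15 was also not called with only the compared conditions in the fit (-0.91, limma, adjusted p = 0.066). In the STHdhQ7 vehicle control the median of the same list was -1.81 against the same vehicle samples.

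Promoter stretches of Gbp2, Gbp7 and Ifit1 are shown as members of this list that fell. Capitals mark the letters GAAANNGAA, here read on the other strand as TTCNNTTTC, a form of the interferon-stimulated response element. The stretches are RefSeq GRCm38.p6, at chr3:142620565-142620653 (plus strand), at chr3:142530244-142530332 (plus strand) and at chr19:34640740-34640828 (plus strand).
Gbp2: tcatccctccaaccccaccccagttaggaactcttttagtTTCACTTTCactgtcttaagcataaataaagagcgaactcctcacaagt
Gbp7: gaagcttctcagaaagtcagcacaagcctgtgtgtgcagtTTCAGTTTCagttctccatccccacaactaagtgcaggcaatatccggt
Ifit1: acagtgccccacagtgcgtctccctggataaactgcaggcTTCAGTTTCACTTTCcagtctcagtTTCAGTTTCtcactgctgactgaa
The first marked base lies at -58, -52 and -109 from the start site of the RefSeq entry. For Gbp2 and Ifit1 this start lies inside the annotated coordinates of the gene. Of 26 windows of the list 14 held a match (53.8%), and of all windows 2812 did (8.56%). The 26 windows covered 23 of the 30 genes. Gbp7 differed by -1.29 in expression (standard error 0.21, limma, adjusted p = 9.5e-06).

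Among 12 chemokine and cytokine genes 2 rose and 2 fell, near the shares of all genes (17.5% and 18.2%). Ccl5, which interferon and inflammatory signals induce, was at 10.19, 10.13 and 10.42 against 8.74, 9.70 and 9.61, with replicate 1 again the lowest, and differed by -0.90 (standard error 0.19, limma, adjusted p = 3.5e-04). Without cyproheptadine replicate 1 the difference in Ccl5 was -0.59, and with only the compared conditions in the fit it was not called (-0.90, limma, adjusted p = 0.0507). Cxcl12, which attracts progenitors and leukocytes, fell from 10.18, 10.26 and 10.32 to 9.85, 9.74 and 9.50, by 0.55 (limma, adjusted p = 0.00164). The scavenger chemokine gene Cxcl16 rose by 0.60 (limma, adjusted p = 1.0e-05), and Ccl2 was not called, at 0.20.

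Of 20 collagen genes 11 fell and 1 rose, with a median of -0.32. Col3a1 (ENSMUSG00000026043, chromosome 1, 45311538 to 45349706, plus strand) was at 12.51, 12.39 and 12.48 in vehicle and 11.08, 11.16 and 10.94 with cyproheptadine. The groups lay more than 1 apart, and the log2 fold change was -1.39 (standard error 0.13, limma, adjusted p = 2.1e-10). Col1a1 was at 14.74, 14.50 and 14.67 against 14.10, 14.21 and 14.02, with a difference of -0.52 (standard error 0.12, limma, adjusted p = 8.4e-04). The basement membrane gene Col4a1 was at 11.57, 11.52 and 11.52 against 11.12, 11.49 and 11.40 and was not called at -0.20 (limma, adjusted p = 0.0777), but it was called without cyproheptadine replicate 2 (-0.29, limma, adjusted p = 0.0231). The rise was in Col8a1, by 0.22 (limma, adjusted p = 0.0442), with overlapping groups. It was lost without cyproheptadine replicates 1 (adjusted p = 0.192, limma) or 2 (0.0837) and without vehicle replicates 2 (0.123) or 3 (0.198). The Col8a1 call was also lost in the 2 shared slots alone (adjusted p = 0.094, limma) and with collection time as a further term (0.054). The same held without the minimum mean (0.0696), without the trend on abundance (0.0502) and with identifiers without a symbol tested too (0.0535, limma). Prelp, a small proteoglycan gene, fell from 7.72, 7.61 and 7.55 to 6.24, 6.27 and 5.86, and the log2 fold change was -1.49 (standard error 0.19, limma, adjusted p = 1.5e-07).

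Of 29 other matrix genes 9 were called higher and 5 lower, with a median of -0.02, where 17.5% and 18.2% of all genes were. With only the 2 shared slots, 5 were called higher. Ctgf, a target of YAP and TGF-beta signalling, was at 9.59, 9.72 and 9.57 in vehicle and 10.70, 10.55 and 10.45 in treated samples. All treated samples were higher, by 0.95 (standard error 0.17, limma, adjusted p = 3.7e-05). The collagen cross-linking enzyme gene Loxl3 fell by 0.52 (limma, adjusted p = 3.8e-06). Aebp1, a matrix gene linked to fibroblasts, differed by -0.13 and was not called (limma, adjusted p = 0.132), but it was called without cyproheptadine replicate 2 (-0.21, limma, adjusted p = 0.0214).

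Of 28 immediate-early and ERK feedback genes 16 rose and 0 fell (19 at an unadjusted limma p under 0.05), with a median of 0.39. Dusp4, a phosphatase gene that ERK induces and whose product shuts ERK down, was at 4.67, 4.72 and 4.61 in vehicle and 6.01, 6.14 and 6.30 with cyproheptadine. The rise was 1.48 (standard error 0.16, limma, adjusted p = 5.4e-09), at a low level in both groups. Dusp6, which acts on ERK itself, went from 5.70, 5.74 and 5.66 to 6.72, 6.59 and 6.71, a rise of 0.96 (standard error 0.12, limma, adjusted p = 6.4e-08). The AP-1 gene Fosl1 was at 7.21, 7.32 and 7.41 against 8.14, 8.48 and 8.44 and rose by 1.04 (standard error 0.14, limma, adjusted p = 1.6e-07). Egr1, a classical immediate-early gene, was at 10.30, 10.41 and 10.37 against 10.34, 10.67 and 10.55, where the groups overlapped (0.16, limma, adjusted p = 0.279). Ptgs2 (ENSMUSG00000032487, chromosome 1, 150100031 to 150108227, plus strand), the inducible cyclooxygenase gene, was at 8.41, 8.59 and 8.36 against 10.27, 9.91 and 9.77. Cyproheptadine replicate 1 was highest, and the rise was 1.52 (standard error 0.18, limma, adjusted p = 3.5e-08). ERK phosphorylation was not measured in these data.

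Hexokinase 2 and other genes of glycolysis rose. Hk2 (ENSMUSG00000000628, chromosome 6, 82725025 to 82774454, minus strand) was at 7.52, 7.42 and 7.33 in vehicle and 8.64, 8.97 and 8.97 in treated samples. All treated samples were higher by more than 1, and the rise was 1.44 (standard error 0.14, limma, adjusted p = 3.9e-10). Ldha, which makes lactate, rose from 12.10, 12.11 and 12.28 to 12.59, 12.75 and 12.75, by 0.53 (standard error 0.10, limma, adjusted p = 7.9e-05). Of 21 genes 12 rose and 1 fell, with a median of 0.32, and the fall was in the muscle-type phosphofructokinase gene Pfkm, by 0.31 (limma, adjusted p = 4.4e-04). Vegfa (ENSMUSG00000023951, chromosome 17, 46016993 to 46032369, minus strand), a vascular growth factor gene induced by hypoxia and by ATF4, was at 7.92, 7.96 and 7.98 against 8.91, 9.35 and 9.16 and rose by 1.18 (standard error 0.11, limma, adjusted p = 1.1e-10). Of 15 targets of the hypoxia-inducible factors 10 rose and 0 fell (10 at an unadjusted limma p under 0.05), with a median of 0.24. Txnip, which limits glucose uptake and follows glucose through the Mondo factors, fell from 10.56, 10.55 and 10.68 to 9.86, 9.81 and 9.72, by 0.80 (limma, adjusted p = 3.9e-07). Its relative Arrdc4 fell by 0.34, and Mlx, the partner gene of the Mondo factors, rose by 0.38 (limma, adjusted p = 0.00389 and 2.5e-06). Ckb, the brain-type creatine kinase gene, rose from 7.65, 7.75 and 7.91 to 9.50, 9.06 and 9.24, by 1.50 (standard error 0.14, limma, adjusted p = 1.6e-10).

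Lists for the making and the breakdown of proteins differed in how firmly they were called. Of 37 ribosome biogenesis genes 31 rose and 1 fell, with a median of 0.37. Ppan, a factor for the large subunit, was at 7.72, 7.96 and 7.96 against 8.60, 8.58 and 8.52 and rose by 0.69 (limma, adjusted p = 1.3e-07). The fall was in Ubtf, a factor for transcription of ribosomal DNA, by 0.21 (limma, adjusted p = 0.014), which was lost without cyproheptadine replicate 1 (adjusted p = 0.0558, limma) and in the 2 shared slots alone (adjusted p = 0.0942, limma). Of 31 proteasome genes 25 rose and 0 fell (28 at an unadjusted limma p under 0.05), with a median of 0.27. Psmd8, a subunit of the regulatory cap, was at 10.29, 10.36 and 10.51 against 10.97, 10.80 and 10.87 and rose by 0.49 (limma, adjusted p = 6.4e-07). With only the 2 shared slots, 13 proteasome genes were called higher. Counts for cytosolic ribosomal proteins hung on single samples. There 16 of 56 were called higher, with a median of 0.19, but 2 without cyproheptadine replicate 1, 4 without cyproheptadine replicate 3, 0, 8 and 35 without vehicle replicates 1, 2 and 3, and 0 with only the 2 shared slots. The count was 2 with only the compared conditions in the fit, 8 after quantile normalization and 8 without the minimum mean. The list mean was 11.67, 11.87 and 12.06 in vehicle and 12.09, 11.98 and 12.11 in treated samples, so the vehicle samples spread widely and the groups overlapped.

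Few genes of the mitochondrial respiratory chain were called. Of 71 nuclear genes of the respiratory chain 8 rose and 5 fell, with a median of 0.06. Both shares were below those of all genes (17.5% and 18.2%). These counts also hung on single samples. The genes called higher numbered 5 and 13 without cyproheptadine replicates 1 and 2 and 5, 4 and 16 without vehicle replicates 1, 2 and 3, and the genes called lower numbered 3 without cyproheptadine replicate 2 and 2 without vehicle replicate 3. With only the 2 shared slots 3 were called higher, and with only the compared conditions in the fit 4 were. Cytochrome c (Cycs), which carries electrons and triggers apoptosis when released, rose from 9.05, 9.32 and 9.39 to 9.80, 9.68 and 9.81, by 0.51, and the succinate dehydrogenase gene Sdha fell by 0.22 (limma, adjusted p = 1.1e-05 and 8.0e-05). Of the 13 genes encoded in the mitochondrial genome 0 were called with limma, and 1 had an unadjusted p under 0.05. Their mean was 13.02, 13.06 and 13.11 in vehicle and 13.40, 13.39 and 13.16 in treated samples, with a median difference of 0.24. Of 76 mitochondrial ribosomal proteins 21 rose and 0 fell (29 at an unadjusted limma p under 0.05), with a median of 0.12, and 13 were called higher without cyproheptadine replicate 1, 12 without vehicle replicate 1, 7 with only the compared conditions in the fit and 3 with only the 2 shared slots.

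Changes in genes of cell division were small. Of 26 mitotic genes 9 fell and 0 rose (15 at an unadjusted limma p under 0.05), with a median of -0.17, and 5 fell without cyproheptadine replicate 2 or without vehicle replicate 1. The mitotic kinase gene Plk1 fell most, from 9.86, 9.77 and 9.82 to 9.52, 9.37 and 9.51, by 0.35 (limma, adjusted p = 2.0e-04). The proliferation marker Mki67 was at 11.60, 11.42 and 11.35 against 11.25, 11.33 and 11.25 and was not called at -0.18 (limma, adjusted p = 0.205). Cyclin B1 (Ccnb1) differed by -0.02 (limma, adjusted p = 0.878), with overlapping groups. Of 36 replication genes 6 rose and 2 fell, with a median of 0.04, where 17.5% and 18.2% of all genes did. Pcna, the sliding clamp gene, differed by 0.13 and Mcm5, of the replicative helicase, by -0.07, and neither was called (limma, adjusted p = 0.107 and 0.337).

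Among 20 genes that p53 is known to induce 9 rose and 1 fell, with a median of 0.19. The shares of all genes were 17.5% and 18.2%. Cdkn1a (p21), which halts the cell cycle, rose from 9.91, 9.75 and 9.82 to 10.31, 10.31 and 10.24, by 0.46 (standard error 0.11, limma, adjusted p = 0.00133). Mdm2, the ligase gene that limits p53, rose by 0.50, and Gadd45a, which ATF4 also induces, by 0.85 (limma, adjusted p = 6.6e-05 and 3.0e-08). The sestrin gene Sesn1 fell by 0.37 (limma, adjusted p = 3.0e-04).

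Of 24 cell death genes 9 fell, 4 rose and 11 were not called, with a median of -0.12. Among all genes 18.2% fell and 17.5% rose. Bmf, a pro-apoptotic gene of the BH3-only kind, was at 7.13, 7.04 and 6.87 in vehicle and 6.06, 6.05 and 5.98 with cyproheptadine. The treated samples were nearly equal and lay well below the controls, a fall of 0.98 (standard error 0.11, limma, adjusted p = 1.3e-08). Bcl2l11 (BIM), a related gene that ERK holds down, was at 8.64, 8.38 and 8.36 against 7.72, 8.01 and 7.87, a fall of 0.59 (standard error 0.08, limma, adjusted p = 2.5e-07). Casp12, the gene of an ER-associated caspase of mice, fell by 0.94 (limma, adjusted p = 5.6e-09). The pore-forming death gene Bax rose by 0.40 and the survival gene Mcl1 by 0.27 (limma, adjusted p = 0.00335 and 1.4e-04). 

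The largest fall of all named genes was that of Peg10 (ENSMUSG00000092035, chromosome 6, 4747306 to 4760517, plus strand), an imprinted gene derived from a retrotransposon. Its values were 12.46, 12.07 and 12.14 in vehicle and 10.39, 10.74 and 10.33 in treated samples. The groups lay more than 1 apart, and the log2 fold change was -1.74 (standard error 0.15, limma, adjusted p = 8.6e-11). Of 15 imprinted genes tested 4 fell and 4 rose, where 18.2% and 17.5% of all genes did. The other falls were in Cdkn1c, Mest and Grb10, by 0.74, 0.57 and 0.28, and the rises were in Impact, Plagl1, Snrpn and Phlda2, by 0.56, 0.40, 0.31 and 0.19. Impact encodes a brake on the eIF2 kinase GCN2. Cyp26b1, which degrades retinoic acid, fell from 8.30, 8.18 and 8.30 to 6.65, 7.04 and 6.48, and the log2 fold change was -1.54 (standard error 0.17, limma, adjusted p = 1.3e-08).

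Cdsn, better known from skin, where its protein joins cells, was among the largest rises, from 5.55, 5.69 and 5.44 to 7.35, 7.56 and 7.51, by 1.90 (standard error 0.24, limma, adjusted p = 1.1e-07). Ifrd1, a transcriptional regulator gene that other genes overlap on both strands, rose from 9.65, 9.69 and 9.66 to 11.08, 11.24 and 11.25, by 1.52 (standard error 0.13, limma, adjusted p = 3.4e-11).

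Antioxidant genes of the NRF2 response rose in 7 of 18 cases and fell in 0 (8 at an unadjusted limma p under 0.05), with a median of 0.13. Srxn1, sulfiredoxin, rose by 0.52 and Hmox1, which degrades haem, by 0.40 (limma, adjusted p = 1.3e-07 and 0.00667), and Hmox1 was not called in the 2 shared slots alone (adjusted p = 0.0904, limma). The reductase gene Nqo1, a standard NRF2 readout, was at 10.34, 10.26 and 10.27 against 10.25, 10.10 and 10.13 and was not called at -0.13 (limma, adjusted p = 0.275). Gstm1, a glutathione transferase gene with close paralogs, fell from 10.20, 10.23 and 10.41 to 9.17, 9.25 and 9.16, by 1.09 (standard error 0.12, limma, adjusted p = 3.9e-09). Of 11 transferase genes 3 fell and 1 rose, where 18.2% and 17.5% of all genes did. Metallothionein 2 (Mt2), which buffers zinc, was at 11.00, 11.39 and 11.60 against 10.98, 10.60 and 10.65 and fell by 0.59 (limma, adjusted p = 0.00372), a call lost without vehicle replicate 3 (adjusted p = 0.0563, limma). Mt1, a near copy, was at 11.45, 11.75 and 11.95 against 11.61, 11.35 and 11.35 and was not called at -0.28 (limma, adjusted p = 0.0652), but it was called without cyproheptadine replicate 1 (-0.37, limma, adjusted p = 0.0293) or vehicle replicate 1 (-0.41, adjusted p = 0.0107). It was also called in the 2 shared slots alone (-0.50, limma, adjusted p = 0.0047) and with only the compared conditions in the fit (-0.44, adjusted p = 0.00982). Reads of Mt1 and Mt2 may have been shared. In this list of 7 genes of zinc handling 2 rose and 1 fell, near the shares of all genes (17.5% and 18.2%).

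Of 17 clock genes 6 were called higher and 3 lower, where 17.5% and 18.2% of all genes were. Ciart, a repressor of the clock, was at 5.22, 5.25 and 5.24 against 6.20, 6.24 and 6.20 and rose by 0.97 (limma, adjusted p = 6.3e-08). Tef, a clock output gene, fell by 0.62 (limma, adjusted p = 6.1e-08), and Nr1d1 and Per2 were not called, at 0.09 and -0.18. Samples of the 2 conditions differ in collection day or time for replicate 1 only.

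Huntingtin (Htt) was at 8.10, 8.10 and 7.92 in vehicle and 7.65, 7.84 and 7.80 with cyproheptadine, and it fell by 0.27 (standard error 0.08, limma, adjusted p = 0.00602). This call was lost without cyproheptadine replicate 1 (-0.21, limma, adjusted p = 0.0541). Of 9 genes of huntingtin and its partners 4 fell and 1 rose, where 18.2% and 17.5% of all genes did. Bdnf, the growth factor gene that supports striatal neurons, was at 9.18, 9.18 and 9.21 against 9.62, 9.41 and 9.27 and was called at 0.25 (limma, adjusted p = 0.0172). The value was 0.15 without cyproheptadine replicate 1 (adjusted p = 0.191, limma), the highest treated sample, and the call was also lost without vehicle replicate 2 (adjusted p = 0.0529, limma). Hap1, a huntingtin partner in transport, was at 8.05, 7.84 and 8.04 against 7.20, 7.54 and 7.88 and was called at -0.44 (limma, adjusted p = 0.012), but at -0.27 without cyproheptadine replicate 1 it was not (adjusted p = 0.162, limma). The calls of Htt, Bdnf and Hap1 were each also lost in the 2 shared slots alone and with only the compared conditions in the fit.

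The best known targets of cyproheptadine were hardly detectable. Hrh1, the histamine H1 receptor gene, was at 1.10, 1.17 and 1.18 in vehicle and 1.05, 1.07 and 1.12 in treated samples, just above the minimum for testing, and was not called (-0.07, limma, adjusted p = 0.134). The serotonin receptor genes Htr2a, Htr2b and Htr2c did not reach the minimum mean of 1. Of 23 genes of receptors and other binding sites 9 were tested, 2 rose and 1 fell, where 17.5% and 18.2% of all genes did. Tmem97, an ER membrane protein gene and a target of SREBP2 whose product binds many amine drugs, was at 9.07, 9.23 and 9.28 against 10.02, 10.01 and 10.07, a rise of 0.84 (standard error 0.08, limma, adjusted p = 2.6e-10). The adrenergic receptor gene Adra1b fell by 0.31 (limma, adjusted p = 0.00579), which was lost without cyproheptadine replicate 3 (adjusted p = 0.0533, limma) or vehicle replicate 3 (adjusted p = 0.0617). This call was also lost with only the compared conditions in the fit (-0.34, limma, adjusted p = 0.0863).

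Markers of other cell types were examined on the linear scale, as the sum of 2 to the power of each value. Such a sum mainly follows its most abundant members. In bulk samples, fewer cells of a type and less RNA per cell cannot be told apart. For 6 of 8 mesenchymal genes the sums, mostly Col1a1, were 35204, 30403 and 33655 in vehicle and 21122, 22780 and 19954 in treated samples. 3 of them fell, Col1a1, Col3a1 and Pdgfrb, the last by 0.51 (limma, adjusted p = 2.1e-05), while Acta2 was low at 4.58, 4.57 and 4.56 in vehicle. Their part in the fall of the collagen list, which shares Col1a1 and Col3a1, was not tested. For 7 of 10 progenitor genes the sums, almost wholly Vim, were 43018, 43094 and 47000 against 37545, 35655 and 36035. Vim and Notch1 fell, by 0.28 and 0.55, and the other 5, Nes and Sox2 among them, were not called. For 8 of 18 striatal genes, led by Foxp1, the sums were 1768, 1625 and 1581 against 1480, 1457 and 1367. Foxp1, Foxp2, Dlx1 and Ebf1 were called lower, at -0.22, -0.30, -0.22 and -0.25. Dlx1 was not called without replicate 1 of cyproheptadine (adjusted p = 0.14, limma) or of vehicle (0.0685), in the 2 shared slots alone (-0.12, adjusted p = 0.315) or with only the compared conditions in the fit (0.217). Foxp2 was not called without cyproheptadine replicates 2 (0.0998) or 3 (0.0748) or without vehicle replicate 1 (0.0643), or with only the compared conditions in the fit (0.183). For 4 of 9 neuron genes, led by Map2, the sums were 444, 385 and 317 against 327, 321 and 283. Tubb3 rose by 0.41 at a low level, and Rbfox3 was below the minimum.

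For 3 of 7 microglia genes, led by Ptprc, the linear sums were 1670, 1901 and 1591 in vehicle and 2122, 1223 and 1142 in treated samples. Ptprc, the leukocyte marker CD45, was at 10.54, 10.75 and 10.47 against 10.92, 10.02 and 9.89, and the groups overlapped (-0.31, limma, adjusted p = 0.189). Without cyproheptadine replicate 1 it was called lower (-0.63, limma, adjusted p = 0.00301), as it was in the 2 shared slots alone (-0.65, adjusted p = 0.00696). Csf1r, at about 2, rose by 0.29, and the microglia markers Aif1, Cx3cr1 and P2ry12 were below the minimum. For 4 of 6 endothelial genes, led by Pecam1, the sums were 631, 248 and 311 against 725, 413 and 548. Pecam1 varied widely, at 9.14, 7.56 and 7.99 against 9.33, 8.35 and 8.88, and was not called (0.59, limma, adjusted p = 0.232), but it was without vehicle replicate 1 (1.09, limma, adjusted p = 0.026) and with only the compared conditions in the fit (0.98, adjusted p = 0.004). Flt1 and Kdr, receptors for Vegfa, rose by 0.48 and 0.32, and Cdh5 and Cldn5 were below the minimum. For 4 of 6 astrocyte genes, led by Gja1, the sums were 1341, 1330 and 1338 against 1187, 1371 and 1190, Slc1a2 fell by 0.43, and Gfap and Aqp4 were below the minimum. For 4 of 8 oligodendrocyte genes, led by Cspg4, they were 1067, 1040 and 981 against 905, 1098 and 1035. Of these 0 were called with limma, 0 had an unadjusted p under 0.05, and Olig1, Olig2, Sox10 and Mog were below the minimum.

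Cyproheptadine was next compared directly with compounds at the same dose, without the vehicle. Loxapine is also a tricyclic, with a central oxazepine ring and a piperazine in place of the carbon ring and the piperidine of cyproheptadine. It shared no combination of day and time with cyproheptadine. Between them 1405 genes differed (10.5% of all genes tested), 659 with higher values in cyproheptadine (4.91%) and 746 with lower values (5.56%). With only the compared conditions in the fit 580 differed, of which 31.9% had higher values, against 46.9% of the 1405. Of the 43 of the latter that differed by more than 1, 42 were lower in cyproheptadine. Cdsn, Slc7a11 and Aldh1l2 led the higher values, at 1.19, 0.97 and 0.96 (limma, adjusted p = 9.6e-04, 0.00505 and 5.3e-05). Tgtp1, Iigp1 and Zbp1, all induced by interferon, led the lower ones, at -2.01, -1.71 and -1.67 (limma, adjusted p = 8.8e-05, 2.4e-04 and 1.5e-04). Zbp1 was at 6.63, 7.03 and 6.98 in loxapine samples and 4.78, 5.32 and 5.51 in cyproheptadine samples. Of 30 interferon-stimulated genes 29 were lower in cyproheptadine, with a median of -1.08, and the list mean was 9.30, 9.49 and 9.49 in loxapine samples. Of 20 collagen genes 12 were lower and 0 higher (15 at an unadjusted limma p under 0.05), with a median of -0.34. In the ATF4 list 10 of 19 were higher and 1 lower, with a median of 0.39, and 12 of 20 cytosolic synthetases were higher, with a median of 0.27.

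The sterol enzymes did not differ detectably between these tricyclics. Of 9 mevalonate and 12 squalene to cholesterol enzymes 0 differed with limma, and 0 had an unadjusted p under 0.05, with medians of 0.02 and 0.05. For Cyp51 the difference was 0.07, with a 95% interval of -0.14 to 0.28. In Sqle the interval was -0.11 to 0.19, and in Dhcr7 -0.21 to 0.15. These intervals limit the size of a difference and do not show that the compounds act alike. Vegfa differed by 0.25 (interval 0.03 to 0.46) and was not called. The number of genes that differed from loxapine was lower when some samples were left out, at 878 without cyproheptadine replicate 1 and 893, 858 and 881 without loxapine replicates 1, 2 and 3.

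DKI was collected in the same 3 slots as cyproheptadine. Here 3834 genes differed (28.6%), 1867 with higher values in cyproheptadine (13.9%) and 1967 with lower values (14.7%). The sterol genes stood apart. Mvd was at 10.81, 10.75 and 10.92 with cyproheptadine and 9.37, 9.04 and 9.08 with DKI. The difference was 1.67 (standard error 0.10, limma, adjusted p = 4.8e-15), and Acat2, of the first step, differed by 1.58 (limma, adjusted p = 3.2e-16). All 12 enzymes from squalene to cholesterol and 8 of 9 mevalonate genes were higher in cyproheptadine, with medians of 1.16 and 1.30. Other genes had lower values. Cdsn, Slc3a2 and Ugt1a6a led these, at -1.62, -1.34 and -1.27 (limma, adjusted p = 1.6e-06, 4.2e-09 and 6.3e-08). Ugt1a6a shares its locus with the other Ugt1a genes, so its reads are uncertain. Of 19 ATF4 regulators 9 were lower and 1 higher, with a median of -0.17, and of 37 ribosome biogenesis genes 30 were lower and 0 higher (33 at an unadjusted limma p under 0.05), with a median of -0.28. Atf4 itself was at 12.45, 12.02 and 12.23 with DKI, and the difference from cyproheptadine was -0.02, with a 95% interval of -0.20 to 0.16. Mitotic genes were higher in cyproheptadine in 25 of 26 cases, with a median of 0.45. Of 30 interferon-stimulated genes 2 differed, Bst2 and Ifi44, both lower in cyproheptadine, with a list median of -0.24. Oasl2 differed by -0.50, with an interval of -1.03 to 0.02, and was not called.

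Meclizine is an H1 antihistamine like cyproheptadine, but with a diphenylmethyl piperazine in place of the fused tricycle. Its replicate 3 shares a slot with cyproheptadine replicate 1. Between them 2527 genes differed (18.8%), 1318 with higher values in cyproheptadine (9.83%) and 1209 with lower values (9.02%). The count was 1205 without meclizine replicate 3. It was 315 when only the compared conditions were fitted, and 67% of these were higher in cyproheptadine, against 52.2% of the 2527. Ctgf, Ptgs2 and the immediate-early receptor gene Nr4a1 led the higher values, at 1.39, 1.32 and 1.30 (limma, adjusted p = 4.4e-07, 2.1e-06 and 1.7e-07). Ptgs2 was at 8.46, 9.22 and 8.30 with meclizine and 10.27, 9.91 and 9.77 with cyproheptadine. Ifi44, Ugt1a6a and Gas1 were among the genes furthest below meclizine, by 1.15, 1.14 and 1.00 (limma, adjusted p = 0.0028, 2.4e-06 and 4.5e-07). Gas1, a surface protein gene of growth arrest, was at 12.45, 12.29 and 12.45 in vehicle, 12.32, 11.93 and 12.33 with meclizine and 11.19, 11.24 and 11.16 with cyproheptadine. Of 28 immediate-early and ERK feedback genes 24 were higher in cyproheptadine, with a median of 0.52, and of 26 mitotic genes 24 were, with a median of 0.31. All 12 squalene to cholesterol enzymes were higher, with a median of 0.64. In the ATF4 list 2 of 19 were higher and 3 lower, with a median of -0.09. Of all genes 9.83% and 9.02% were. Trib3 differed by -0.53 (interval -0.96 to -0.11), Asns by -0.08 (interval -0.30 to 0.15) and Atf4 by 0.09 (interval -0.09 to 0.28), and these were not called. The intervals are not adjusted for the number of genes.

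**Figure D4:**
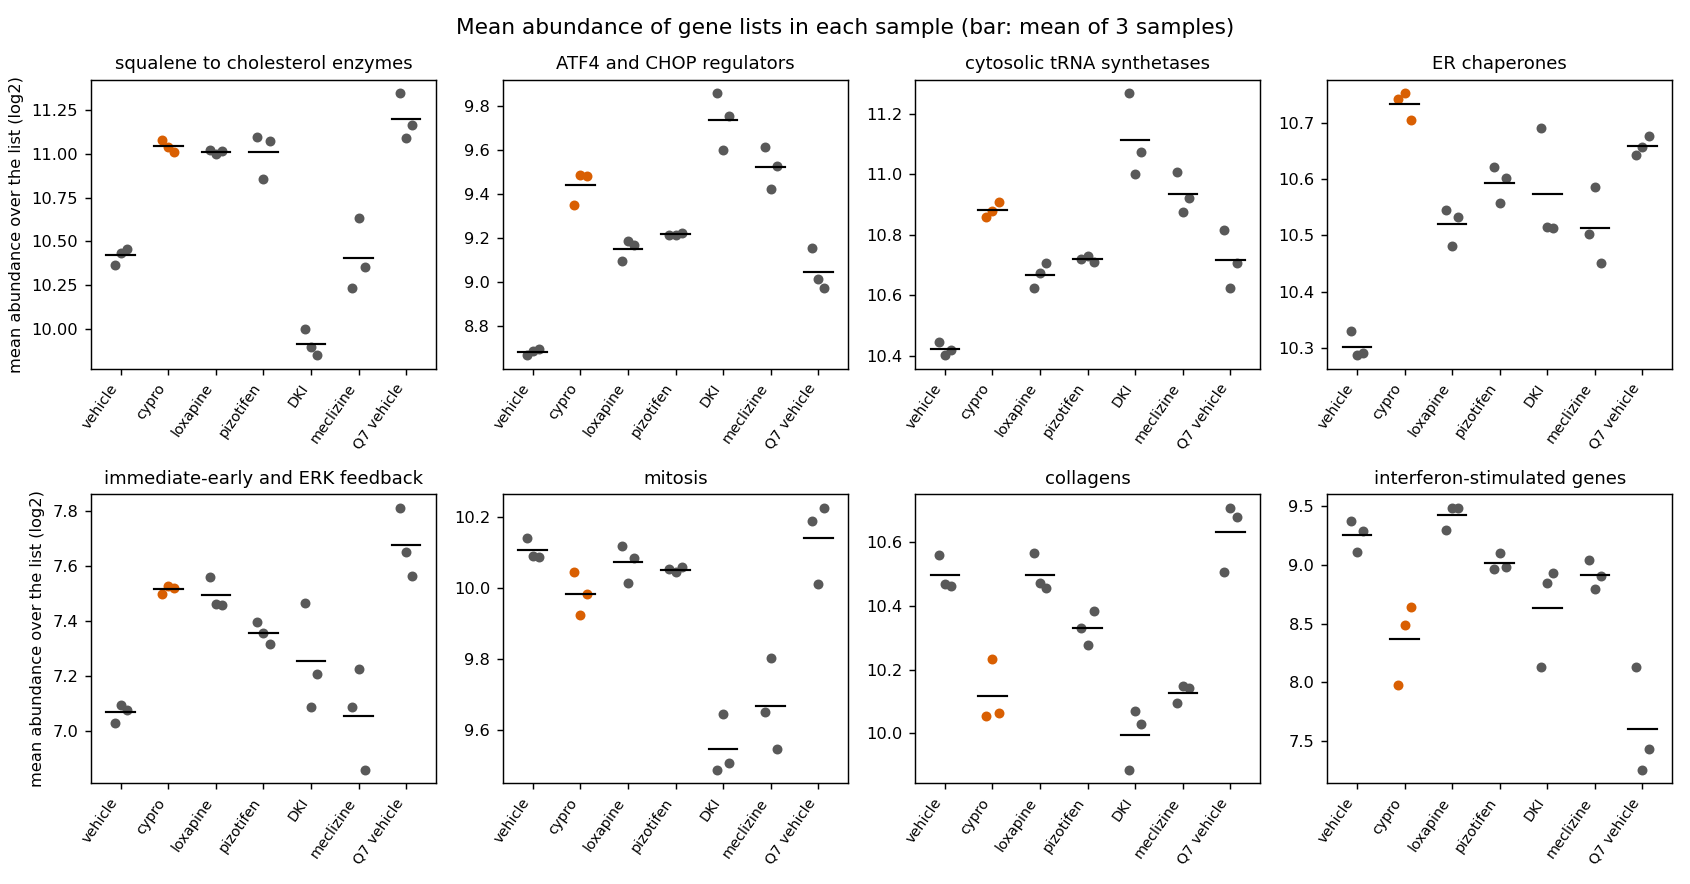
Mean log2 abundance over each of 8 gene lists (vertical axis) in the 3 samples of 7 conditions (horizontal axis), with a bar at the mean of 3 samples. The squalene to cholesterol enzymes stood at 11.08, 11.04 and 11.01 in cyproheptadine samples, 10.37, 10.43 and 10.46 in vehicle and 10.00, 9.90 and 9.85 with DKI, and the interferon-stimulated genes at 7.98, 8.48 and 8.64, 9.38, 9.11 and 9.29 and 8.13, 8.85 and 8.93.

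Pizotifen has the tricyclic piperidine frame of cyproheptadine with a thiophene in place of a benzene ring and a saturated bridge. It was given at 5 µM, so its values are set beside those of cyproheptadine without a test, and each is a difference from the same vehicle samples. For the squalene to cholesterol list the medians were 0.55 for cyproheptadine, 0.51 for pizotifen and 0.55 for loxapine. For the ATF4 list they were 0.76, 0.43 and 0.39, and for ER chaperones 0.45, 0.29 and 0.25. Interferon-stimulated genes had medians of -0.89, -0.25 and 0.16, and collagens -0.32, -0.20 and -0.06. Among single genes, Peg10 was at -1.74, -0.78 and -0.81 and Col3a1 at -1.39, -0.67 and -0.34, in the same order of compounds.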

How the data were processed

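RNA-Seq of polyadenylated RNA was used, and metabolite, protein and chromatin data were not used here. The log2 values deposited by the authors were made from reads trimmed with Trimmomatic 0.36, alignment to the GRCm38.p5 transcriptome, quantification with RSEM and normalization across samples, and the authors used DESeq2 with the collection day. The log2 scale was read from the values, which run from -2.34 to 18.62 and whose linear totals differ by at most 1.11 times. The transformation is not named and depth is unknown, so no counting error is given. Of 18178 genes with a symbol, the 13409 with a mean of at least 1 were tested with limma 3.58.1 in R 4.3.3, with 16 conditions, the collection day, a trend on abundance and 30 residual degrees of freedom. The fit was tested on simulated data. Figures and promoter searches used Python 3.11.15 and matplotlib 3.10.9, and promoters came from RefSeq.

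Members and gene lists were chosen with earlier results of these data known. Named genes are the 10 largest rises and falls among called genes whose mean reaches 6 and whose groups are separate, the key genes and the largest called rise and fall of each of 50 lists, and the 3 largest differences each way from each compound, 174 in all. Some of them are withheld for evaluation and are not reported by themselves. These were named after their values were seen: Bst2, Casp12, Cdkn1c, Ebf1, Eif2ak1, Eif2ak3, Eif2ak4, Foxp1, Gbp7, Ggps1, Grb10, Ifi27, Kars, Kdr, Mest, Mx1, Mylip, Phlda2, Plagl1, Qars, Rsad2, Snrpn and Vars. Alternatives covered covariates, filters, scaling, the samples in the fit and leaving out each replicate.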

Additional observations from a re-analysis of the deposited data

Results flagged for a closer look

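Identifiers without a gene symbol are outside the comparisons above. When they were tested together with the other genes, 2205 could be tested and 186 of them were called in cyproheptadine against vehicle (8.44%), 94 higher and 92 lower. In the test of genes with a symbol alone, 35.6% were called. The sets were not matched for abundance, so these shares do not compare how far each set responds. Of the 186, 157 are annotated as non-coding, 28 as coding and 1 is not in the annotation. Neat1, the non-coding RNA on which nuclear paraspeckles are built, was at 10.00, 10.41 and 10.09 in vehicle and 9.38, 9.80 and 9.45 with cyproheptadine, and it fell by 0.61 (limma, adjusted p = 0.00982). The largest difference among the identifiers with a mean of at least 6 was that of the pseudogene Gm45551, at 1.14 (limma, adjusted p = 5.6e-09). Next was the non-coding Gm20186, at 1.00, and the largest fall was that of Gm43305, by 0.83.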

How the results depend on the processing

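Of 2938 recomputed values of 174 named genes, 2850 kept their direction and call, 72 in 25 genes lost the call, 16 gained it and 0 turned direction. Fitting only the compared conditions, which leaves fewer samples for the spread, moved the genes called to 3115 against vehicle, 580 against loxapine, 2575 against DKI and 315 against meclizine. With 1 replicate left out in turn the counts were 3806 to 4442 against vehicle, 858 to 1250 against loxapine, 3084 to 3488 against DKI and 1205 to 2704 against meclizine, and the cause was not tested. Against loxapine they were 878 without cyproheptadine replicate 1 and 893, 858 and 881 without loxapine replicates 1, 2 and 3. The shared slots alone gave 3209 against vehicle.

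With the replicate number as a block in place of the collection day the counts were 4904, 1512, 3856 and 2673. The labels put replicates 2 and 3 of vehicle and cyproheptadine in shared slots but not replicates 1, and the numbers were not taken as a pairing. Same-numbered samples had correlations of -0.0554, 0.115 and 0.264, and not every sample correlated best with its own number.

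Of 612 recomputed counts of gene lists, 582 stayed within 1.5 times of the value reported and 30 did not. Depth is unknown, so its part in the calls could not be assessed.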
